A study of Homo sapiens with 6 samples.

Results

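NF-kB is a family of transcription factors built as pairs of 5 related subunits, which the genes NFKB1, NFKB2, REL, RELA and RELB encode, and which are held in check by inhibitors. The results below concern these 5 genes and 5 inhibitor genes: NFKBIA, NFKBIB and NFKBIE, which encode the IkB proteins alpha, beta and epsilon, NFKBIZ, which encodes the nuclear protein IkB-zeta, and TNFAIP3, which encodes the ubiquitin-editing enzyme A20. They were chosen by gene symbol in the array's probe annotation. All 10 genes were found, each as 1 transcript cluster (a set of probes that reads 1 transcribed locus), among 33297 clusters on the array and 18417 genes with a cluster of their own symbol.

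RNA came from HEK293 cells, an established human embryonic kidney line that carries adenovirus E1 genes, and was read on 6 Affymetrix Gene 1.0 ST arrays, 3 labelled control and 3 labelled treatment. The labels disagree on what the controls received: the source field gives a transient vector for control cells and a Neo vector for treatment cells, while the design text contrasts untreated cells with cells given the empty plasmid pCMV9. Only the words control and treatment, from the titles, are used here. No dose, time after transfection or separate culture is given for any array, so p-values reflect array-to-array spread that could be technical, and the number of arrays limits the precision.

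In resting cells the IkB proteins bind NF-kB dimers and keep them in the cytoplasm. Upstream signals, among them those from receptors for foreign nucleic acid, activate the IKK kinases, the IkB proteins are degraded, and the freed dimers enter the nucleus and switch on genes for cytokines, chemokines and survival factors. NFKBIA and TNFAIP3 are themselves known targets of NF-kB and serve as negative feedback, and NFKB1, NFKB2, REL and RELB are also induced by it in many cells. Because activation runs through protein degradation and nuclear entry, an array that reads RNA does not measure it directly.

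The promoters are shown first because several of these genes are known to respond to NF-kB itself. RefSeq promoter windows (GRCh38.p14) were matched by symbol for 8 of the 10 genes, NFKB1, NFKB2, REL, RELA, NFKBIA, NFKBIB, NFKBIZ and TNFAIP3, with 14 annotated starts between them. In the 250 bases before each start, both strands were searched for the NF-kB consensus, of 10 bases, and for the core of the interferon-stimulated response element (ISRE), taken as GAAA, any 2 bases and GAAA again, and overlapping matches of 1 motif were merged. The 5 windows printed are those of the feedback inhibitors NFKBIA and TNFAIP3 and the subunit genes REL and NFKB2 (its annotated start 2), which hold NF-kB matches, and of RELA (its annotated start 1), which holds none. They lie at chr14:35404750-35404999 (minus strand), chr6:137867009-137867258 (plus), chr2:60881324-60881573 (plus), chr10:102394328-102394577 (plus) and chr11:65663858-65664107 (minus), in that order. Each is written 5′ to 3′ along its gene and ends 1 base before the start. Capitals mark NF-kB matches, except in RELA, where they mark the ISRE core.
NFKBIA: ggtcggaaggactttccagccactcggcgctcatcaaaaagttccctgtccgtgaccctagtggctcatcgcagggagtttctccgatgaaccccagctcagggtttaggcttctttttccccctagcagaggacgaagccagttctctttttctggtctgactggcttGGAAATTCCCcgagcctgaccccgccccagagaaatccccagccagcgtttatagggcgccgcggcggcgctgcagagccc
TNFAIP3: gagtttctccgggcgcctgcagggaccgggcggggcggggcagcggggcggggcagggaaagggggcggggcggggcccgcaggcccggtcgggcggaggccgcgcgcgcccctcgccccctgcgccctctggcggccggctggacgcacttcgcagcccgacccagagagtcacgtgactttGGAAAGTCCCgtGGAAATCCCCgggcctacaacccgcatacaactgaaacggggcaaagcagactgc
REL: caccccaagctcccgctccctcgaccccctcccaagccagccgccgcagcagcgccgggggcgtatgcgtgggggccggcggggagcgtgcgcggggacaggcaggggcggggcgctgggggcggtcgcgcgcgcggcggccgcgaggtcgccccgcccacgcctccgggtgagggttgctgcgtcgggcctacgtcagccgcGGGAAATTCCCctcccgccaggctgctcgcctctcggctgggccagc
NFKB2: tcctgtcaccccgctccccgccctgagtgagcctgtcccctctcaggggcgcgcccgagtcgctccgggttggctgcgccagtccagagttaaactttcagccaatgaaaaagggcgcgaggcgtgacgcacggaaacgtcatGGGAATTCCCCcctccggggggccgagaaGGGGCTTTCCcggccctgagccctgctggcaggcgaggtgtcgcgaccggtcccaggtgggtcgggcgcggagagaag
RELA: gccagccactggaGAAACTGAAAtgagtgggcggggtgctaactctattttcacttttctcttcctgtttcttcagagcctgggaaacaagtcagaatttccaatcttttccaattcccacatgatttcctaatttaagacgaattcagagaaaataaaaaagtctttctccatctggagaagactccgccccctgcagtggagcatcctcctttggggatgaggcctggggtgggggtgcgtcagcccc

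An NF-kB match stood upstream of 7 of these 8 genes, RELA being the exception. It was found at 9 of their 14 starts (64.3%), against 9.96% of all 35116 windows in the table. In NFKBIA the match, ggaaattccc as read along the gene, lies 81 to 72 bases before the start, and TNFAIP3 has 2 matches, beginning 67 and 55 bases before its start. REL holds gggaaattccc from 47 bases before its start, and NFKB2 holds gggaattcccc and ggggctttcc at its start 2 and ggggcttccc and gggactttcc at its start 3. NFKB1 (start 1), NFKBIB (start 2) and NFKBIZ (start 1) carry the same 10 letters, gggaatttcc, within their matches, and start 2 of NFKBIZ has ggggtttccc. The ISRE core was found upstream of RELA alone among the 8, as gaaactgaaa, 237 to 228 bases before start 1. Over all genes on the array with a window (14239), 14.5% held an NF-kB match and 3.53% an ISRE core. Of the 95 genes that were higher in treatment arrays at the threshold used below, 73 had a window, and 53.4% of the 73 held an ISRE core and 26% an NF-kB match. A match is a run of letters and was not tested as a binding site.

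**Figure D1:**
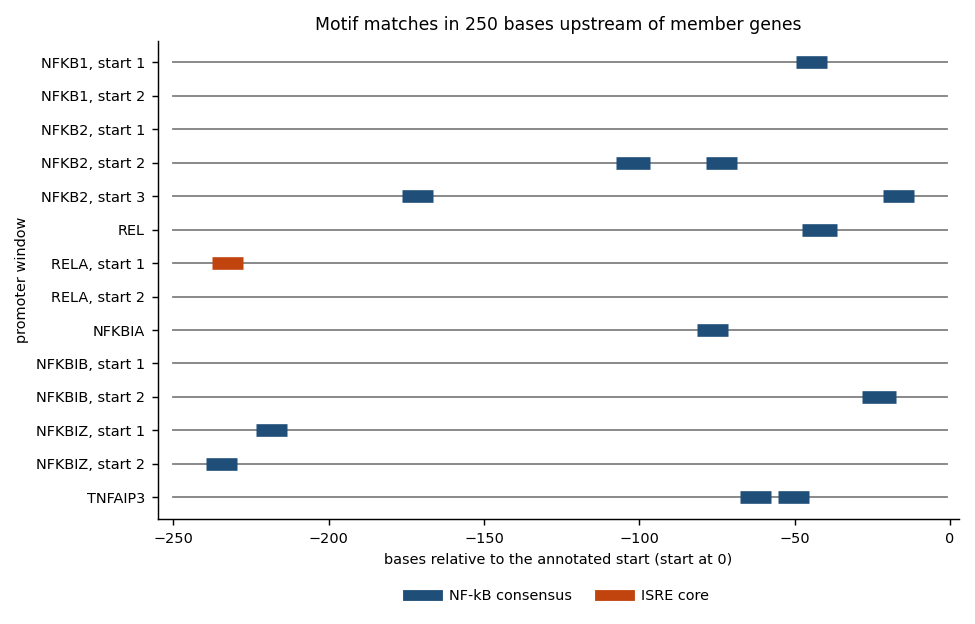
Positions of NF-kB consensus matches (blue) and ISRE core matches (orange) in the 250 bases before each annotated start of 8 genes; the horizontal axis is the distance in bases from the start, at 0, and each row is 1 start. NF-kB matches stand at 9 of the 14 starts, and the only ISRE core is at start 1 of RELA.

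None of the 10 genes passed the test between the groups. Each cluster was tested with limma on log2(intensity + 16), and p was adjusted by Benjamini-Hochberg over all 33297 clusters, with a threshold of 0.05. Of all clusters 0.372% passed (124, of which 119 were higher in treatment), against 0 of the 10 genes, whose adjusted p ran from 0.723 for NFKBIA to 0.995 for REL. At an unadjusted p under 0.05, 0 of the 10 were left, against 7.30% of all clusters, and the control and treatment values overlapped in all 10, while 14.6% of all clusters had groups that stood apart. The median difference, treatment minus control, was -0.07 over the 10 genes on the log2 scale and 0.0116 over all clusters. Such counts cannot show that the genes did not change. The precision is given by the 95% intervals: all 10 lay between -0.74 and 0.83 on this log2 scale. As a ratio of intensity + 16 that is 0.601 to 1.78, inside a 2-fold change in either direction. With a plain log2, an offset of 1 or without control replicate 2, the interval of NFKBIZ reached past a 2-fold change. The smallest difference among the 124 clusters that passed was 1.06 on the log2 scale. The RNA is that of whole cultures, so fewer responding cells and a smaller response per cell cannot be told apart.

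RELA encodes p65, the subunit with a strong activation domain that pairs with p50 in the most common NF-kB dimer. Its intensity was 622, 775 and 907 in control replicates 1, 2 and 3 and 745, 617 and 562 in treatment replicates 1, 2 and 3. The groups overlapped, with control replicates 2 and 3 above all treatment arrays and control replicate 1 below 1 of them. The means were 768 ± 142 and 641 ± 93.9 (SD, n = 3), a difference of -0.25 ± 0.216 (SE; 95% interval -0.71 to 0.22; limma, adjusted p = 0.809).

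NFKB1 encodes p105, which is processed to the subunit p50, and REL encodes c-Rel, a subunit best known in lymphocytes. NFKB1 gave 245, 306 and 339 in control arrays and 347, 307 and 177 in treatment arrays. REL gave 179.8, 208 and 230.3, then 279, 219.7 and 135. In both genes treatment replicate 1 was the highest of the 6 arrays and treatment replicate 3 the lowest, so that the treatment arrays bracketed the controls. The difference on the log2 scale was -0.13 ± 0.252 for NFKB1 (SE; adjusted p = 0.932 by limma) and -0.01 ± 0.249 for REL (adjusted p = 0.995), the largest standard errors among the 10 genes. Without treatment replicate 3 the differences were 0.14 and 0.25.

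NFKB2 and RELB act together in the slower, non-canonical arm of the pathway, where p100, the product of NFKB2, is processed to p52 and pairs with RelB. NFKB2 gave 108, 167 and 140.0 in control and 134, 159 and 137 in treatment arrays, with all treatment values inside the control range. Its difference was 0.06 ± 0.211 (SE; 95% interval -0.40 to 0.51). RELB gave 68.0, 51.7 and 39.9, then 71.6, 68.0 and 58.1, means of 53.2 ± 14.1 and 65.9 ± 7.01 (SD, n = 3). These means lay just above the 95th percentile of 379 olfactory receptor clusters, a dim reference (50.8 in control and 63.8 in treatment arrays). The highest control array of RELB reached the middle treatment array, and the difference was 0.26 ± 0.213 (SE; adjusted p = 0.801 by limma).

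NFKBIA, the classical inhibitor that is degraded and then resynthesised when NF-kB is active, had the lowest p of the 10 genes. It gave 114, 128 and 157 in control arrays and 156, 203 and 164 in treatment arrays. The groups overlapped by a narrow margin, through the lowest treatment array and the highest control array. The means were 133 ± 21.9 and 174 ± 25.2 (SD, n = 3), a difference of 0.36 ± 0.208 on the log2 scale (SE; 95% interval -0.09 to 0.80), or a ratio of 1.28 (0.939 to 1.74). The adjusted p from limma was 0.723. The difference did not pass in any of 18 alternative settings. It stayed at 0.36 under those that cannot move the estimate of a gene with 1 cluster. It lay between 0.25 and 0.47 under the others, which reuse the same arrays.

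For the other 2 IkB proteins that hold dimers in the cytoplasm the differences were negative. NFKBIE gave 129, 108 and 94.5 in control arrays and 77.8, 76.9 and 115 in treatment arrays, where only treatment replicate 3 lay within the control range. Its difference was -0.27 ± 0.217 (SE; 95% interval -0.74 to 0.20; adjusted p = 0.798 by limma). Without treatment replicate 3 it was -0.43, with an unadjusted p of 0.0472 and an adjusted p of 0.483 by limma, the lowest of its 18 alternatives (0.483 to 0.962). NFKBIB gave 275, 427 and 366, then 300.4, 341 and 301, all treatment values lying inside the control range, and the difference was -0.15 ± 0.214 (SE).

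NFKBIZ encodes an inducible nuclear IkB that can also help p50 activate a subset of inflammatory genes. It gave 36.0, 65.1 and 42.1 in control arrays and 51.8, 65.1 and 75.0 in treatment arrays. Control replicate 2 stood as high as treatment replicate 2, and the difference was 0.34 ± 0.226 (SE; 95% interval -0.14 to 0.83; adjusted p = 0.748 by limma). This was the dimmest of the 10 genes: its control mean of 47.7 lay under the 95th percentile of 379 olfactory receptor clusters (50.8 in control arrays), genes that this line is not known to use. In treatment arrays its mean of 64.0 lay only just over the same percentile (63.8). Its level cannot be told from such background, and its interval alone among the 10 reached past a 2-fold change, with a plain log2 (-0.27 to 1.18), an offset of 1 (-0.24 to 1.13) or without control replicate 2 (-0.01 to 1.07).

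TNFAIP3, whose product A20 edits ubiquitin chains on upstream adaptors to end the signal, gave 95.9, 122 and 156 in control arrays and 143, 117 and 82.3 in treatment arrays. As in NFKB1, REL and RELA, treatment replicate 3 was the lowest of the 6 arrays. The difference was -0.12 ± 0.239 (SE; 95% interval -0.63 to 0.39), and 0.07 without that array.

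**Figure D2:**
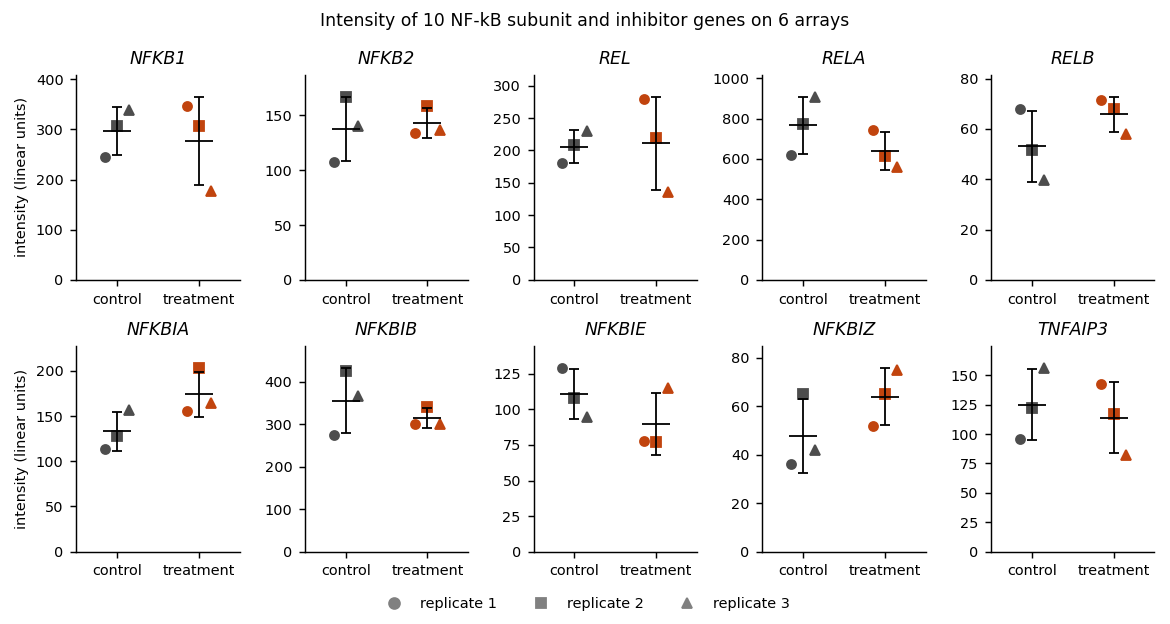
Intensity (linear units, vertical axes from 0 and scaled per gene) of the 10 genes in 3 control (grey) and 3 treatment (orange) arrays. Symbols mark the replicate number, which is not taken to pair arrays, and bars give the mean ± SD. The groups overlap in every panel, most narrowly for NFKBIA (157 against 156).

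**Figure D3:**
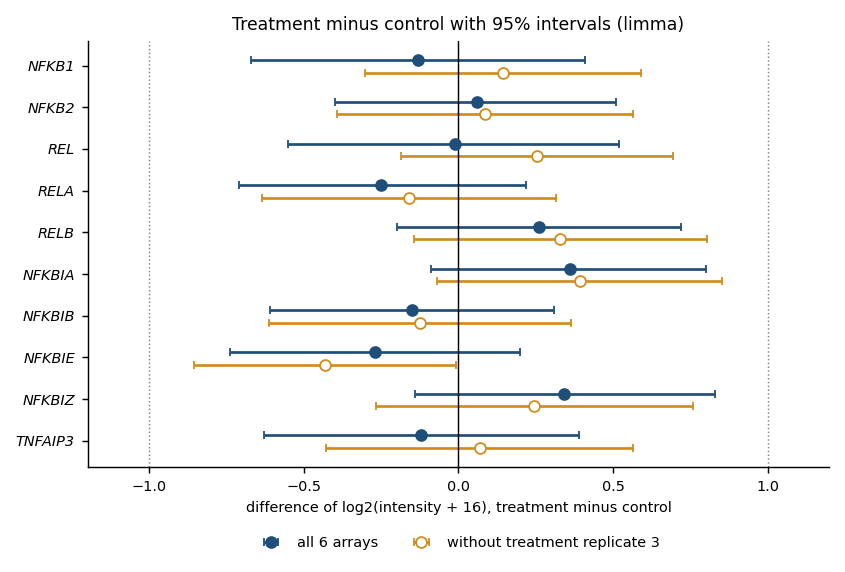
Difference of log2(intensity + 16), treatment minus control, with limma's 95% interval for each gene, over all 6 arrays (filled) and without treatment replicate 3 (open); dotted lines mark a 2-fold change. With all arrays every interval includes 0 and lies inside the dotted lines; without treatment replicate 3, NFKB1, REL and TNFAIP3 change sign.

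Arrays of 1 group differed among themselves, and in several genes the same array stood lowest. Treatment replicate 3, which correlated least with the other arrays over all clusters (mean Pearson's r of 0.963, against 0.972 to 0.978 for the others), had the lowest value of all 6 arrays in 4 of the 10 genes, NFKB1, REL, RELA and TNFAIP3. Over all 18417 genes it was the lowest array in 34.7%, so 4 of 10 is close to the background. Control replicate 1 was the lowest array for another 4, NFKB2, NFKBIA, NFKBIB and NFKBIZ, against 19.8% of all genes. Measured from the control mean, the 5 subunit genes had medians of 0.23, 0.09 and -0.42 in treatment replicates 1, 2 and 3 on the log2 scale and of -0.25, 0.03 and 0.16 in control replicates 1, 2 and 3. For the 5 inhibitor genes the same medians were 0.12, -0.04 and 0.06 in treatment and -0.27, 0.00 and 0.06 in control arrays. Without treatment replicate 3, 7 of the 10 differences were positive, in place of 4, and 0 passed. The part of array quality in these values was not tested.

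**Figure D4:**
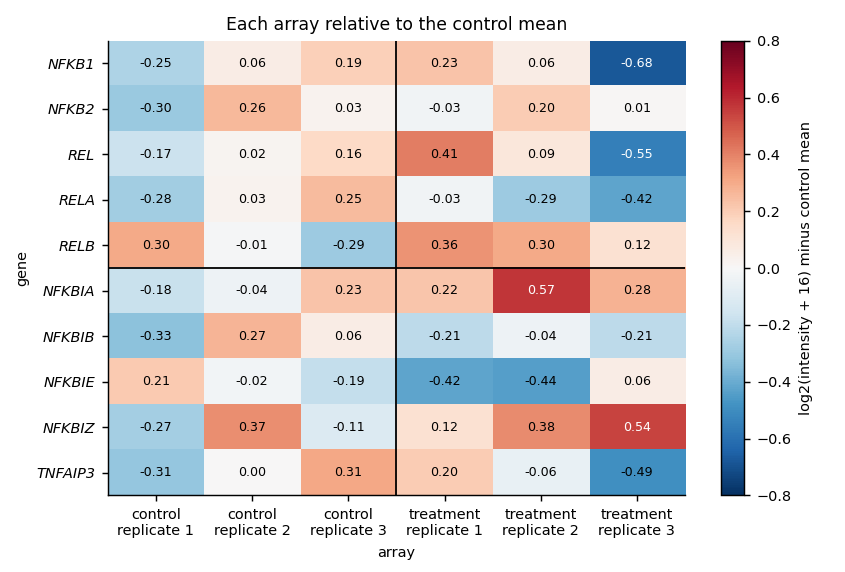
Each array's log2(intensity + 16) minus the control mean for the 5 subunit genes (above the line) and 5 inhibitor genes (below it), with the value in each cell; red is higher and blue lower. In treatment replicate 3, NFKB1 (-0.68), REL (-0.55), TNFAIP3 (-0.49) and RELA (-0.42) each have their lowest value of the 6 arrays.

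Within an array, the inhibitor NFKBIA can be set against its main binding partner RELA, a pair chosen after the values were seen and therefore not tested. From the control mean, NFKBIA minus RELA was 0.10, -0.07 and -0.02 in control replicates 1, 2 and 3 and 0.25, 0.86 and 0.70 in treatment replicates 1, 2 and 3, in log2 units. All 3 treatment arrays were above all 3 control arrays in this difference. How many other gene pairs separate in this way was not counted, and 14.4% of all genes do so singly. NFKBIA minus NFKBIE, also chosen after the values were seen, gave -0.39, -0.02 and 0.42 in control and 0.64, 1.00 and 0.22 in treatment arrays, where treatment replicate 3 fell inside the control range. Both describe unequal values of 2 genes and say nothing of which gene changed.

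The genes whose pattern over the 6 arrays was most like that of NFKBIA, by the root mean square difference of log2 values centred per gene, were OR10H3 (0.0522), OR51L1 (0.0550) and FBLL1 (0.0652), out of 18407 genes with a median of 0.345. The first 2 are olfactory receptor genes with intensities from 4.38 to 19.5. FBLL1 gave 82.1, 93.6 and 99.7 in control and 109, 136 and 113 in treatment arrays.

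The 3 lists of other pathway components also held 0 genes that passed. Among 12 other IkB family members, repressors and A20 partners, 0 passed, with 2 positive and 10 negative differences and a median of -0.14. BCL3, a nuclear IkB that binds p50 and p52, had the lowest p (0.37 ± 0.203, SE; adjusted p = 0.709 by limma) and was the only one of the 12 whose groups did not overlap, close to the 14.4% of all genes. It gave 22.5, 37.4 and 32.0 in control and 44.2, 43.1 and 44.0 in treatment arrays, levels within the olfactory receptor range. TNIP1, which binds A20, gave -0.24 ± 0.211, the small GTPase NKIRAS2 -0.21 ± 0.215 and the repressor NKRF -0.21 ± 0.228 (SE).

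Of 12 measured IKK and upstream kinases, 0 passed, 0 had an unadjusted p under 0.05 (7.46% of all genes) and in 0 did the groups separate (14.4% of all genes), counts near those shares for so few genes. Their median was 0.11. MAP3K14, the NIK kinase of the non-canonical arm, had the lowest p, at -0.25 ± 0.212 (SE). The IKK complex itself gave -0.23 ± 0.196 for IKBKB, 0.28 ± 0.264 for IKBKG and 0.01 ± 0.238 for CHUK, and TBK1, a kinase that activates IRF3, gave 0.22 ± 0.211.

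Among 22 measured receptor adaptors and ubiquitin enzymes 0 passed and 3 had an unadjusted p under 0.05, against 7.46% of all genes. MYD88, the adaptor of most Toll-like receptors, gave 76.4, 89.5 and 118 in control and 137, 174 and 116 in treatment arrays, overlapping through treatment replicate 3 (0.52 ± 0.223, SE; adjusted p = 0.680 by limma). MAVS, the mitochondrial adaptor of RNA helicase signalling, gave 418, 594 and 547, then 372, 359 and 374, with all treatment arrays below all controls (-0.46 ± 0.205; adjusted p = 0.680 by limma). TRAF5 gave 0.49 ± 0.218 and TRAF1 0.38 ± 0.206 (SE). The groups did not overlap in 3 of the 22, MAVS, TRAF1 and SHARPIN, near the background of 14.4% of all genes.

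Of 30 measured genes that NF-kB is known to induce, 4 rose, 0 fell and 26 did not pass, where 0.516% of all genes rose. This list and the others were chosen with earlier results of these data known, so such counts describe them and test nothing. The chemokine CCL5 went from 34.1, 26.0 and 31.6 in control to 188, 301 and 315 in treatment arrays, a rise of 2.58 ± 0.228 on the log2 scale (SE; adjusted p = 3.87e-05 by limma). TNFSF10, the death ligand TRAIL, rose by 1.93 ± 0.238, the chemokine CXCL10 by 1.62 ± 0.260 and the transcription factor IRF1 by 1.13 ± 0.205 (SE), and all 4 genes are also known to respond to interferon. In all 4 the groups did not overlap. The means of CXCL10, 1.97 in control and 41.5 in treatment arrays, were both under the olfactory receptor percentile (50.8 and 63.8). The control means of CCL5 (30.6) and TNFSF10 (12.1) were also under it. The call of CXCL10 was lost without control replicate 1, 2 or 3 or treatment replicate 2 (adjusted p = 0.0767, 0.0642, 0.0624 and 0.0616 by limma; up to 0.294 over its 16 alternatives). That of IRF1 was lost without any 1 array except treatment replicate 1, with adjusted p from 0.0823 to 0.285, and those of CCL5 and TNFSF10 held without each array. With a plain log2 only the call of CCL5 held, and on that scale the difference of CXCL10 was 4.86, against 0.79 when 50 was added to intensities. The list was dim, with 14 of its 30 genes at or under the olfactory receptor percentile in control arrays, and the 379 olfactory receptor clusters had a median difference of 0.12. Its part in the list's median of 0.20 was not tested.

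The 4 targets with the next lowest p did not pass. CCL20, a chemokine, gave 2.61, 3.58 and 6.08 in control and 15.1, 15.4 and 19.2 in treatment arrays (0.70 ± 0.195, SE; adjusted p = 0.389 by limma). CXCL8, or interleukin 8, gave 22.0, 12.1 and 11.3, then 39.9, 44.1 and 27.9 (0.78 ± 0.219; adjusted p = 0.397 by limma). IL6 gave 0.58 ± 0.221 and the adhesion molecule ICAM1 0.62 ± 0.234, each with an adjusted p of 0.642 by limma. In these 4 the treatment arrays all lay above the controls, as in 10 of the 30 genes, against 6.65% of all genes. Among the 10, TRAF1 and IRF1 are also counted in other lists here. An unadjusted p under 0.05 by limma was reached by 8 of the 30, against 7.46% of all genes. The means of CCL20, CXCL8 and IL6 lay under the olfactory receptor percentile in both groups (50.8 in control and 63.8 in treatment arrays), and that of ICAM1 in control arrays. SOD2, a mitochondrial enzyme and a standard NF-kB target, gave 819.8, 788 and 644 in control and 649.9, 695 and 769 in treatment arrays (-0.09 ± 0.200), and TNF gave 0.21 ± 0.250 (SE); both overlapped, and both were named after their values were seen.

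Set beside 3 other lists, of transcription factors and JAK kinases, the NF-kB genes differed in their counts from the interferon regulatory factors. The difference between the lists was not tested. Of 8 measured interferon regulatory factors 2 rose (0.516% of all genes did), IRF1 (above) and IRF7, which gave 85.6, 98.5 and 82.2 in control and 215, 308 and 478 in treatment arrays (1.67 ± 0.258, SE; adjusted p = 0.00699 by limma, 0.102 without control replicate 1, and up to 0.300 over 18 alternatives). The groups did not overlap in 6 of the 8, 5 higher and 1 lower in treatment (IRF5, -0.46), against 14.4% of all genes and 0 of the 10 NF-kB genes. The median of the 8 was 0.63, and that of the NF-kB genes -0.07. IRF9 (1.02 ± 0.227) and IRF2 (0.73 ± 0.213) did not pass. Of 9 measured JAK kinases and STAT factors 0 passed, with a median of 0.05, and of 11 AP-1 family genes 0 passed, with a median of 0.16 and 4 at an unadjusted p under 0.05 (7.46% of all genes), led by ATF3 at 0.63 ± 0.205 (SE).

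**Figure D5:**
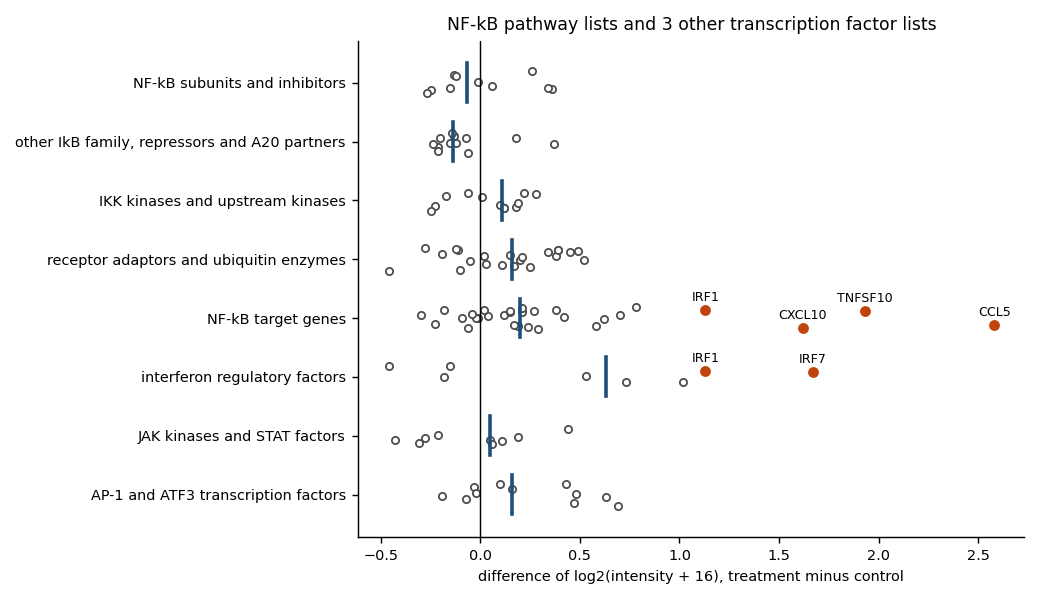
Difference of log2(intensity + 16), treatment minus control, for every measured gene of 8 lists; each circle is 1 gene, filled and named where limma's adjusted p is under 0.05, and the blue bar is the list median. The 10 NF-kB genes lie between -0.27 and 0.36, while the filled genes, CCL5, TNFSF10, CXCL10, IRF1 and IRF7, lie between 1.13 and 2.58.

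The labelled cell type was checked on marker genes. All 7 HEK293 markers, among them KRT8, KRT18, VIM and the neurofilaments NEFL and NEFM, were above the olfactory receptor percentile in both groups. Of 8 measured leukocyte markers 3 were above it, CD14, CD79A and SPI1, while PTPRC (CD45) and CD3E were not, and the summed intensity was 483 to 633 in control and 475 to 740.0 in treatment arrays. Of the endothelial markers 2 of 4 and of the fibroblast markers 2 of 5 were above it, with sums of 753 to 1115 and 468 to 649 in control and 809.6 to 1449 and 425 to 488 in treatment arrays. In these 4 lists 0 genes passed.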

How the data were processed

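The deposited table holds linear intensities for transcript clusters, a unit read from the range of the values. Per the labels' protocols, total RNA was labelled for Affymetrix Gene 1.0 ST arrays, and the submitters' processing notes name Partek. How background, normalization and probe summary were handled is not given in the sources used here. In the platform annotation of 2016, 19460 clusters carry 1 symbol, 1754 more than 1, and 12083 lack one. Only single symbols named a gene, and the brightest cluster stood for a gene with several. Counts of measured genes leave out listed genes that are not analysed here.

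No further normalization was applied. As intensities approach 0, 16 was added before log2, which understates changes of dim genes. Two-sided tests used limma 3.58.1 (lmFit, eBayes) in R 4.3.3, adjusted by Benjamini-Hochberg over 33297 clusters, and the script was tested on simulated data. Genes, lists and settings were chosen with earlier results of these data known. Named are all 10 genes, those of each other list that passed and up to 4 more with the lowest p, and the 3 genes most like the member with the lowest p; CHUK, SHARPIN, IRF5, SOD2 and TNF were added after their values were seen. Alternatives were other offsets, a plain log2, a replicate block, quantile normalization, median centring, filters on dim clusters, 1 cluster or the cluster mean per gene, other variance priors and thresholds, and leaving out each array.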

Additional observations from a re-analysis of the deposited data

How the results depend on the processing

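The count of 0 among the 10 NF-kB genes held under every alternative run, although among clusters above the median intensity only 8 were tested, without RELB and NFKBIZ. Few clusters passed under any setting, 0.372% in the main one. A count of 0 among 10 genes is near that share and says little about them. RELA, NFKBIA, NFKBIB and NFKBIE kept the sign of their difference under all 18 alternatives and RELB and NFKBIZ under the 17 that tested them, and the other 4 did not. Settings that change only the variance prior, the block or the clusters tested cannot move the difference of a gene with 1 cluster. REL turned from -0.01 to 0.00 with quantile normalization. Leaving out 1 array at a time gave -0.31 to 0.14 for NFKB1, -0.09 to 0.19 for NFKB2, -0.23 to 0.25 for REL and -0.28 to 0.07 for TNFAIP3. The number of clusters that differed, 124, was 40 on a plain log2 scale, 58 when 1 was added to intensities, and 69 to 129 without 1 array. The 4 NF-kB targets that passed became 1 on either of those scales, 2 among clusters above the median intensity, where dim genes are not tested, and 2 to 4 without 1 array. The 2 interferon regulatory factors became 0 on either scale, 1 when 50 was added, and 0 to 3 without 1 array. The cause of this dependence on scale was not tested. With the replicate number as a block, 105 clusters, 3 targets and 1 interferon regulatory factor passed, since IRF1 did not (adjusted p = 0.0891 by limma, within 8.24e-04 to 0.285 over its alternatives). The lowest of these came from the cluster mean per gene, where the standard error was 0.246 for IRF1 and all 10 NF-kB genes alike. The titles give a replicate number but do not say that it pairs the arrays. Deviations from the group means of same-numbered arrays correlated at -0.1658, 0.0839 and -0.3557. Those of arrays with unlike numbers correlated at -0.1865 to 0.3627. Deviations from a mean of 3 arrays depend on each other, so these values cannot settle whether arrays were prepared in pairs.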
